A study of Mus musculus with 2 samples.

Results

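The Schlafen genes Slfn1, Slfn2, Slfn4, Slfn5, Slfn8 and Slfn9 were followed across the immune cells of a mouse melanoma, as 6 of the 27998 features in the count tables. They were chosen by symbol, because Slfn4 had stood out in phagocytes of these same libraries. The phagocyte values of Slfn4 are therefore a description, and its paralogs are set beside it. Live CD45+ cells were sorted from subcutaneous tumors of B16F10, a melanoma line, at day 14 in hosts on a C57BL/6 background. The control hosts were Usp18f/f, so they carried the floxed gene without Cre, and the other hosts were Usp18f/f LysM-Cre, in which Cre is driven from the Lyz2 locus of myeloid cells. Cells of 4 tumors per group were pooled into 1 library, for which about 8000 cells were aimed at. No group has a replicate, so no test between the libraries was possible, and all intervals below are 95% intervals for counting error only.

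Schlafen genes form a mouse gene cluster first described in developing thymocytes, where several members slow proliferation. Short members such as Slfn1 and Slfn2 lack the helicase-like region that long members such as Slfn5, Slfn8 and Slfn9 carry, and Slfn4 is of intermediate length. Many respond to type I interferon, and Slfn2 is known for keeping T cells and monocytes quiescent, while Slfn4 is known from activated macrophages and from myeloid cells that infiltrate inflamed stomach. Usp18 removes the ubiquitin-like protein Isg15 from its targets and dampens signalling of the type I interferon receptor.

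All 6 genes lie on chromosome 11 of GRCm38. Slfn5 (ENSMUSG00000054404) spans 82951349 to 82964840 on the plus strand, followed by Slfn9 (ENSMUSG00000069793, 82978390 to 82991830) and Slfn8 (ENSMUSG00000035208, 83002158 to 83020810) on the minus strand. Slfn2 (ENSMUSG00000072620, 83065112 to 83070678), Slfn1 (ENSMUSG00000078763, 83116849 to 83122670) and Slfn4 (ENSMUSG00000000204, 83175186 to 83190216) follow on the plus strand. All are annotated as protein-coding. Reads of this chemistry come from transcript ends, so the last 500 bases of each gene's longest protein-coding transcript were taken. Their words of 60 bases were sought in the whole transcripts of the other Schlafen genes. Ends of the genes' other transcripts were not compared. Of 441 words per gene, 0 were shared with another Schlafen gene for 5 members, and 4 words of Slfn8 (0.907%) occurred in Slfn9.

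The stretches before the transcription start are shown because the members differ there in letters that interferon-responsive promoters often hold. RefSeq windows on GRCm38.p6, from 250 bases before to 50 bases after each start, were found for 6 of 6 members. Capitals mark the core of the interferon-stimulated response element, searched on both strands as 2 copies of GAAA with any 2 bases between them, in these 3 members, each printed 5′ to 3′ on the strand of its gene.
Slfn5 (chr11:82951912-82951991, plus strand): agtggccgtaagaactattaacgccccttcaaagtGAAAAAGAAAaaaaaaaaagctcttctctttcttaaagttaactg
Slfn8 (chr11:83020814-83020893, minus strand): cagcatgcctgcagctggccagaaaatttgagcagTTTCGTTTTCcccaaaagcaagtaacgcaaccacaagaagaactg
Slfn9 (chr11:82991831-82991910, minus strand): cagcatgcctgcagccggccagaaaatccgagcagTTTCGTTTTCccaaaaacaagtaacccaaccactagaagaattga

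The core lies at position -155 from the start in Slfn5, at -48 in Slfn8 and at -45 in Slfn9, and 3.44% of all 32851 promoter windows of this length hold it. Slfn1, Slfn2 and Slfn4 hold no such match in their windows. The palindrome TTCNNNGAA, known from interferon-gamma-activated sites and found in 8.30% of windows, occurs in no member. Slfn1 and Slfn4 share a run of 15 bases, ACTTCCTGGAGTGAC, at -74 and -73, which occurs in 2 of the 32851 windows. Slfn2 and Slfn1 share the 12 bases CACTTCCTGGAG, found in 12 windows. The runs overlap each other and the reverse complement of GGAAGT, a core known from ETS-family sites that 23.8% of windows hold. They are in capitals here.
Slfn1 (chr11:83116711-83116790, plus strand): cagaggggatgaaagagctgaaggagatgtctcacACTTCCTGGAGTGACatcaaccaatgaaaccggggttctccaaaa
Slfn4 (chr11:83175078-83175157, plus strand): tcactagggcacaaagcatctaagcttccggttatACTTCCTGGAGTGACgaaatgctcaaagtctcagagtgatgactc
Slfn2 (chr11:83065021-83065100, plus strand): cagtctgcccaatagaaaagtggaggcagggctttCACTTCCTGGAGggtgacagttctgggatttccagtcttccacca

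The control library held 7754 barcodes with 43412346 UMIs (unique molecular identifiers, the counted transcripts), and the other held 6063 barcodes with 48167632. Filters kept 6650 and 5458 cells, and 8 barcode sequences occurred in both libraries. Usp18 went against the label: its level in mononuclear phagocytes was 19.5 counts per 1000000 UMIs (CPM) for control cells and 93.0 CPM for the others. The labels do not give the deleted exons, and a 3′ tag outside them checks nothing. Lyz2, which carries Cre, measured 9379 and 17.6 CPM in the same cells, and the second library is called the library labelled knockout here. Of cells outside the melanoma class with transcripts of only 1 sex, 36.4% of control cells and 86.1% of the others held Xist rather than Y-linked UMIs. Sex and genotype are thus unequal between the pools, and values are also given within cells of each sex.

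Cells were assigned to classes by marker genes, and CPM was computed from the summed UMIs of a class. Where a pair of values is given, the control library comes first. Macrophage markers summed to 19184 and 20460 CPM in macrophage-like cells, and monocyte markers to 9686 and 11407 CPM in monocyte-like cells. Neutrophil-like cells numbered 455 and 24, so their second value rests on few cells. Despite the CD45 sort, 150 and 364 cells were melanoma-like.

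**Figure D1:**
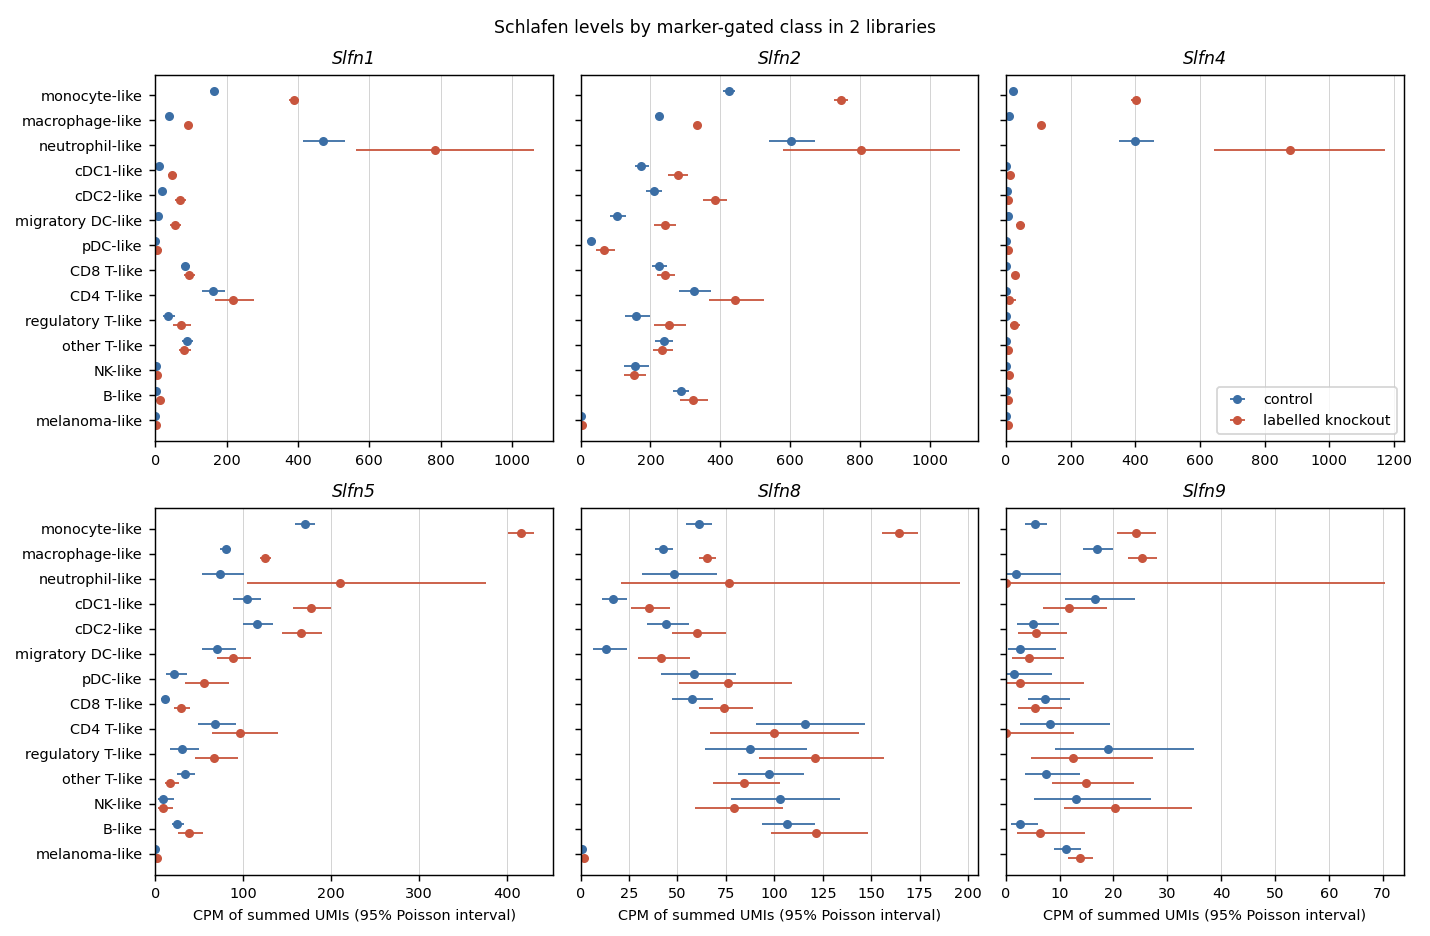
Level of each gene (x axis, CPM of summed UMIs) in 14 cell classes (y axis) of the control library (blue) and the library labelled knockout (red); points are the class values and bars their 95% Poisson intervals. Outside phagocytes and neutrophil-like cells Slfn4 is at most 43.6 CPM, in migratory DC-like cells of the library labelled knockout, whereas Slfn2 is measured in every immune class and Slfn9 stays low throughout.

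Slfn4 had the most restricted pattern of the family. In the control library it measured 400 CPM in neutrophil-like cells (349 to 457), 21.9 CPM in monocyte-like cells (18.1 to 26.3) and 10.1 CPM in macrophage-like cells (8.09 to 12.5). Every other class was at or below 5.20 CPM, the value of migratory dendritic-like cells. The intervals of the 3 leading classes did not overlap each other, whereas that of migratory dendritic-like cells (1.42 to 13.3) overlapped the macrophage-like one.

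In the library labelled knockout the same 3 classes led, with higher values. Monocyte-like cells measured 401 CPM (387 to 416, 2979 UMIs), 18.3 times the control value (15.2 to 22.3). Macrophage-like cells measured 109 CPM (104 to 115), 10.8 times the control value (8.68 to 13.6). The 24 neutrophil-like cells measured 878 CPM, 2.19 times the control value (1.56 to 3.03). By log2 ratio with a pseudocount of 5 CPM, Slfn4 ranked 1 among 11302 genes in macrophage-like cells and 5 among 10282 in monocyte-like cells. These ranks belong to the values for which the gene was chosen.

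More cells held the transcript, as well as more transcript per class. After each cell was thinned to 1000 UMIs, 2.03% of monocyte-like control cells held a Slfn4 UMI (1.19% to 3.23%, exact Clopper-Pearson), against 24.1% in the library labelled knockout (21.7% to 26.6%). Without thinning, 64 of 858 and 611 of 1295 cells held one. Thinning left out 20 and 73 shallower cells. In macrophage-like cells the thinned shares were 1.29% (0.643% to 2.29%) and 11.8% (10.0% to 13.8%). B-like cells, which should lack the gene, had thinned shares of 0.148% and 0.241%. Their median depths were 1501 and 1763 UMIs, below the 5747.5 and 5375 of monocyte-like cells.

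The other 5 members were also higher in the phagocytes of the library labelled knockout, by smaller factors. A gene was counted as 2-fold higher when its log2 ratio was at least 1. In monocyte-like cells 5 of 6 members passed, where 1.9% of 10282 tested genes did, and the median log2 ratio was 1.31 for the members and -0.05 for all genes. In macrophage-like cells 2 of 6 passed, Slfn1 and Slfn4, where 0.611% of genes did. Slfn4 is among the members that passed in each class and over both, and it enters the median. As the family was chosen for Slfn4 in phagocytes, these figures are a description. Over both classes together the count was 2 of 6, against 0.881% of genes. It was 5 with a mitochondrial limit of 5% or with the mean of per-cell CPM, 4 after thinning, and 1 without cluster 6, described below, or in cells with Y-linked UMIs. Slfn5 and Slfn8 both lay just below the fold over the 2 classes together, Slfn8 at a log2 ratio of 0.94. The median-of-ratios scaling moved all genes by at most 0.012 on the log2 scale in these classes.

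The short members differed from each other. Slfn1, a gene known to arrest growth when overexpressed in thymocytes, measured 166 and 389 CPM in monocyte-like cells, a ratio of 2.35 (2.18 to 2.54). In macrophage-like cells it measured 38.9 and 93.1 CPM, a ratio of 2.40 (2.12 to 2.71). Slfn2, required for lymphocyte quiescence, measured 423 and 744 CPM in monocyte-like cells, a ratio of 1.76 (1.67 to 1.85). In macrophage-like cells it measured 223 and 334 CPM, a ratio of 1.5 (1.42 to 1.58). The intervals of the ratios of Slfn1 and Slfn2 did not overlap in either class.

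Among the long members the ratio was larger in monocyte-like than in macrophage-like cells. Slfn5 measured 171 and 416 CPM in monocyte-like cells (ratio 2.44, 2.26 to 2.63), and 80.2 and 125 CPM in macrophage-like cells (ratio 1.56, 1.43 to 1.71). Slfn8 measured 60.9 and 165 CPM in monocyte-like cells (ratio 2.70, 2.39 to 3.07), and 42.8 and 65.4 CPM in macrophage-like cells (ratio 1.53, 1.35 to 1.73). Slfn9 was low, at 5.33 and 24.1 CPM in monocyte-like cells (ratio 4.52, 3.03 to 7.0). In macrophage-like cells it measured 16.9 and 25.3 CPM (ratio 1.5, 1.23 to 1.83). For each of these 3 genes the intervals of the ratios in the 2 classes did not overlap. In cells with Xist, however, Slfn5 had ratios of 1.88 (1.64 to 2.15) and 1.87 (1.58 to 2.23) in the 2 classes.

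**Figure D2:**
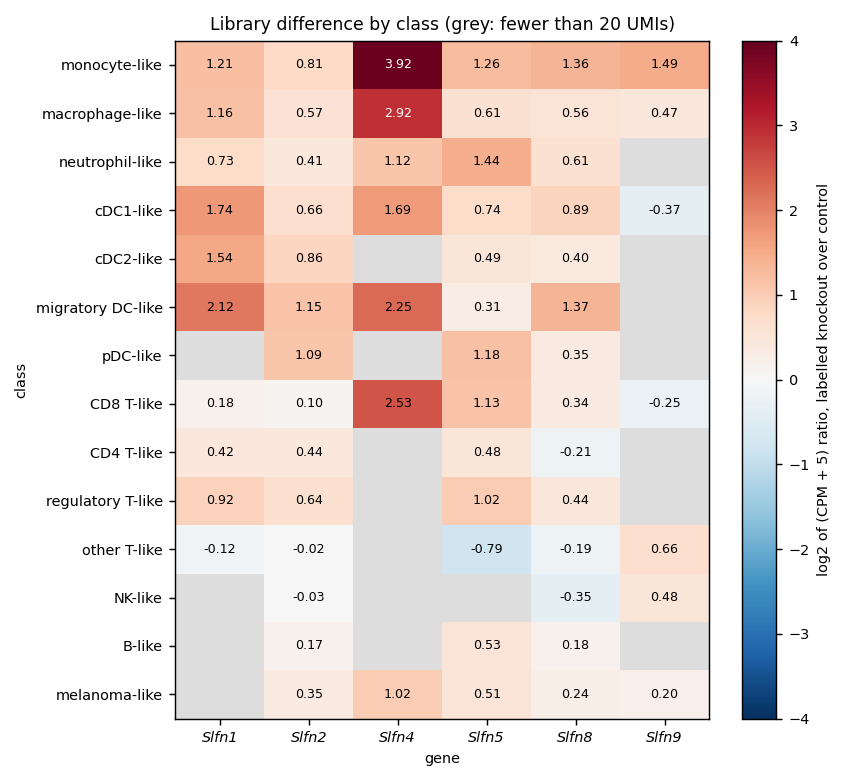
The log2 ratio of (CPM + 5), library labelled knockout over control, for each gene (columns) in each class (rows), with red for higher, blue for lower and grey where fewer than 20 UMIs were counted. The upper rows, monocyte-like to pDC-like, are positive with the exception of Slfn9 in cDC1-like cells. The lower rows hold negative as well as positive values, from -0.79 for Slfn5 in other T-like cells to 2.53 for Slfn4 in CD8 T-like cells.

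The cDC1-like and cDC2-like dendritic classes carried more Slfn1, Slfn2 and Slfn5 in the library labelled knockout. In cDC1-like cells, which cross-present antigen, Slfn1 measured 10.7 and 47.6 CPM (ratio 4.45, 2.62 to 7.95) and Slfn5 measured 104 and 177 CPM. In cDC2-like cells Slfn1 measured 20.5 and 69.5 CPM (ratio 3.38, 2.24 to 5.21) and Slfn2 measured 210 and 384 CPM. Slfn5 in cDC2-like cells turned direction in cells with Y-linked UMIs, with a log2 ratio of -0.69. At least 2-fold higher were 2 of 6 members in cDC1-like cells, Slfn1 and Slfn4, and 1 of 4 in cDC2-like cells, Slfn1, against 1.07% and 1.23% of genes. Slfn4 in cDC1-like cells had 1 and 19 UMIs, so it passed the minimum of 20 UMIs only through the higher library, and 15 of the 19 lay in 3 cells. Slfn1 there had 18 and 69 UMIs, with the control count below that minimum. Plasmacytoid-like cells had 2 of 3, Slfn2 and Slfn5, against 1.03%, and Slfn5 turned to a log2 ratio of -0.37 in those with Xist. Slfn2 had 19 and 26 UMIs there and Slfn5 14 and 21, with both control counts below the minimum.

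In migratory dendritic-like cells 4 of 5 members were at least 2-fold higher, against 4.37% of genes. Slfn4 measured 5.20 CPM in 4 UMIs and 43.6 CPM in 41 UMIs (ratio 8.39, 3.04 to 32.3). Slfn1 had 7 and 53 UMIs there and Slfn8 10 and 39. The control counts of Slfn1, Slfn4 and Slfn8 lay below the minimum. Macrophage markers summed to 52 and 545 CPM in this class. Monocyte markers summed to 107 and 701 CPM, and the part of such transcripts in the Slfn values of this class was not tested.

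Neutrophil-like cells had the highest Slfn1 and Slfn2 levels among the classes in both libraries, although the Slfn2 intervals of neutrophil-like and monocyte-like cells overlapped in the library labelled knockout. Slfn1 measured 471 and 783 CPM (ratio 1.66, 1.17 to 2.32), and Slfn2 measured 602 and 802 CPM (ratio 1.33, 0.942 to 1.84). The direction of Slfn1 turned within each sex, from a log2 ratio of 0.73 over the whole class to -1.32 where cells had Xist and -0.19 where they had Y-linked UMIs. At least 2-fold higher were 2 of 5 members, Slfn4 and Slfn5, against 7.02% of genes. Another 24.0% of genes were at least 2-fold lower in this class.

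Slfn2 and Slfn8 were measured in every lymphoid class. Slfn2 measured 287 and 323 CPM in B-like cells (ratio 1.12, 0.968 to 1.30) and 157 and 154 CPM in NK-like cells (ratio 0.980, 0.726 to 1.33). Slfn8 measured 107 and 122 CPM in B-like cells (ratio 1.14, 0.889 to 1.45) and 103 and 79.3 CPM in NK-like cells (ratio 0.771, 0.516 to 1.15). In B-like cells 0 of 3 tested members were 2-fold higher, and 0 of 3 in NK-like cells, where 0.379% and 2.25% of genes were. These intervals include 1 and leave room for differences of their own width. In NK-like cells the median-ratio scaling moved all genes by -0.11 on the log2 scale.

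T-like cells split by subset. In CD4 T-like cells Slfn1 measured 161 and 217 CPM and Slfn2 measured 325 and 441 CPM, and 0 of 4 members were 2-fold higher, against 1.32% of genes. In regulatory T-like cells Slfn5 measured 30.5 and 66.8 CPM (ratio 2.19, 1.17 to 4.28), and 1 of 4 members was 2-fold higher, against 2.68% of genes. This was Slfn5, with 16 and 32 UMIs, and its control count lay below the minimum. In CD8 T-like cells Slfn5 measured 10.7 and 29.4 CPM (ratio 2.75, 1.61 to 4.82). There 2 of 6 members were 2-fold higher, Slfn4 and Slfn5, against 1.03% of genes. Slfn4 had 1 and 40 UMIs in CD8 T-like cells, so it passed the minimum only through the higher library. Other T-like cells fitted no single subset, for lack of markers or because CD8 markers came with CD4 or regulatory ones. They had 0 of 5 members 2-fold higher, against 1.06% of genes. Slfn5 was lower there, at 33.9 and 17.4 CPM (ratio 0.514, 0.288 to 0.889).

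Slfn4 in T-like cells rested on few cells. It measured 0.664 CPM in 3 UMIs and 18.4 CPM in 63 UMIs, and it was the 1 of 6 members that was 2-fold higher over all T-like cells, against 0.81% of genes. With so few control UMIs, it passed the minimum only through the higher library. The 63 UMIs came from 27 of 871 cells, and 3 of those cells held 58.7% of them. In CD8 T-like cells 40 UMIs came from 12 cells, with 77.5% in 3 cells. With T cells taken from clusters in place of marker gates, the log2 ratio was 1.26 rather than 2.05. Macrophage markers summed to 56 and 175 CPM in CD8 T-like cells, and monocyte markers to 654 and 1242 CPM. The part of such transcripts in these values was not tested. Per 1000 UMIs of C1qa, C1qb, C1qc and Apoe in the library labelled knockout, CD8 T-like cells held 323 Slfn4 UMIs, monocyte-like cells 180, macrophage-like cells 7.39 and B-like cells 14.0. Monocyte-like cells held 2228 CPM of these genes and macrophage-like cells 14825, so this scale says little about transcripts of monocytes. Regulatory T-like cells held 0 and 12 Slfn4 UMIs, at least 4.38-fold higher against a floor of 3 UMIs. Of the 12, 10 lay in 3 cells. Macrophage markers summed to 47.6 and 246 CPM in this class and monocyte markers to 804 and 1188 CPM, and their part was not tested.

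Melanoma-like cells held little of the family apart from Slfn9. Slfn9 measured 11.3 and 13.7 CPM there (ratio 1.22, 0.925 to 1.61). The other members stayed at or below 6.15 CPM, the level of Slfn4 in the library labelled knockout. The class had 1 of 5 members 2-fold higher, Slfn4, against 0.122% of genes. Slfn4 had 4 and 60 UMIs there, so it passed the minimum only through the higher library. Macrophage markers summed to 1327 and 1514 CPM in this class, and their part in the value was not tested. Median depth was 50718.5 UMIs in control melanoma-like cells and 4338 in the others. Of the remaining Schlafen features, Slfn3 had 69 and 86 UMIs in all, Slfn14 had 1 and 0, and Slfnl1 had 1 and 2.

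Clustering without Schlafen and interferon-list genes divided the phagocytes into 7 clusters. Slfn1, Slfn2, Slfn4 and Slfn5 were higher in the library labelled knockout in 7 of 7, with intervals above 1 in each. Slfn8 was higher in 7 of 7 with intervals above 1 in 5. Slfn9 was higher in 6 of 7, and lower in cluster 13, the cycling macrophage-like cluster, with 40.0 and 30.4 CPM (ratio 0.761, 0.582 to 0.998).

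The Slfn4 ratio ranged from 4.31 to 24.7 over these clusters. Cluster 4, led by Thbs1 and Arg1, measured 15.8 and 390 CPM and had the 24.7-fold ratio (17.5 to 36.1). Cluster 6, led by Rsad2, Ccl7 and Isg15, measured 41.5 and 534 CPM. Cluster 2, led by Ms4a7 and C1q genes, measured 7.12 and 63.9 CPM. Cluster 6 mixed 55 monocyte-like with 79 macrophage-like control cells, and 260 with 250 in the other library. It held 134 and 539 cells, so class values mix clusters in unequal shares. Cluster 17 had a median of 868 and 779 UMIs per cell, with Slfn4 at 73.9 and 319 CPM. Slfn2, Slfn5, Slfn8 and Slfn9 had their largest cluster ratios in cluster 6. These were 2.11 (1.89 to 2.35), 3.64 (3.06 to 4.37), 4.10 (3.13 to 5.47) and 14.7 (4.94 to 71.9). Slfn9 rested there on 3 control UMIs. The largest Slfn1 ratio, like that of Slfn4, was in cluster 4, at 3.70 (3.05 to 4.52).

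**Figure D3:**
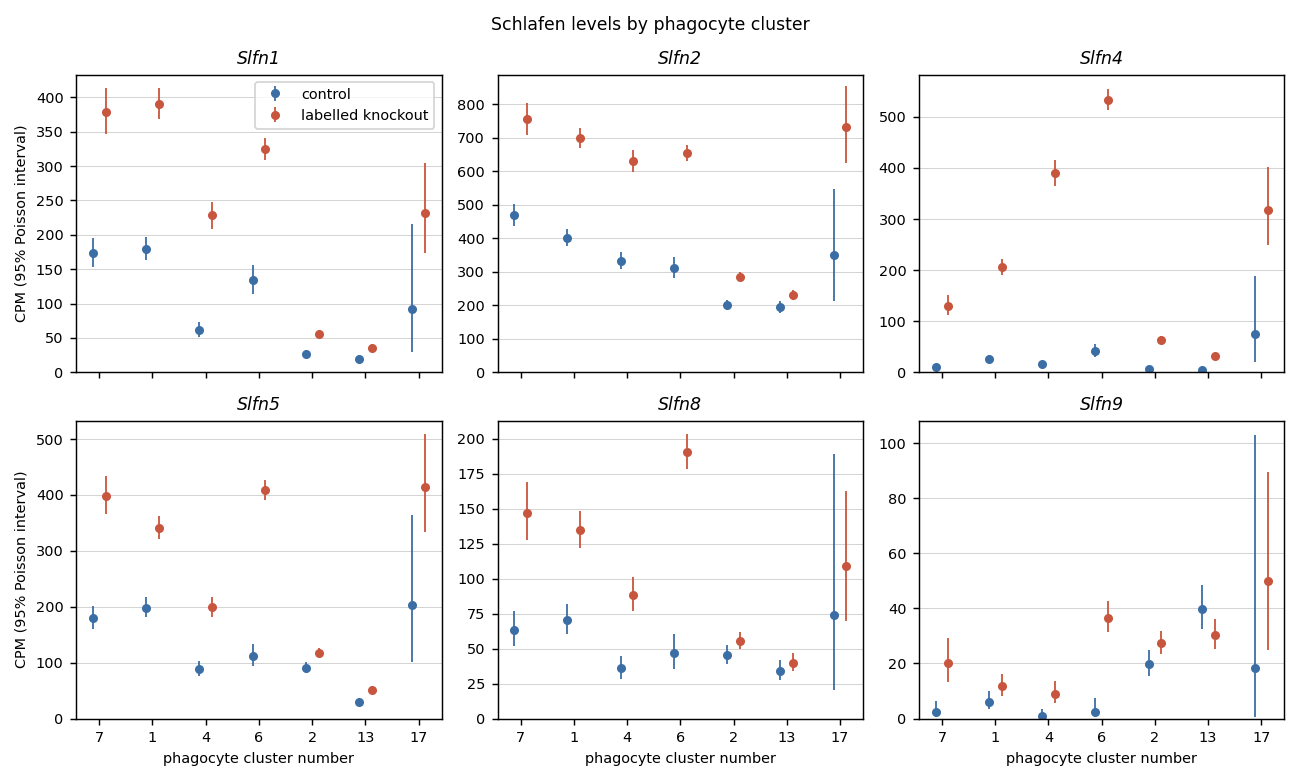
Level of each gene (y axis, CPM with 95% Poisson interval) in 7 phagocyte clusters (x axis) of the control library (blue) and the library labelled knockout (red). Clusters 7, 1 and 4 hold mostly monocyte-like cells and 2 and 13 mostly macrophage-like cells, and cluster 6 holds both. The red points lie above the blue ones throughout, with the exception of Slfn9 in cluster 13, and the highest Slfn4 point is cluster 6 at 534 CPM.

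Cycling clusters had less Slfn5 than the less cycling clusters set beside them, and several other members were lower as well. Against cluster 2, the cycling cluster 13 had 0.324 times the Slfn5 level in the control library (0.249 to 0.416) and 0.436 times in the other (0.372 to 0.509). Slfn8 stood there at 0.751 (0.574 to 0.979) and 0.719 times (0.593 to 0.869), and Slfn2 at 0.966 and 0.814 times. Slfn1 stood at 0.701 and 0.638 times and Slfn4 at 0.491 and 0.503 times, each with a control interval that included 1. Cluster 21, of cycling T cells, had 0.172 times the Slfn1 level of cluster 10 in the control library (0.0825 to 0.323) and 0.266 times in the other (0.157 to 0.435). Cluster 10 held mostly CD8 T-like cells, 260 of 304 and 166 of 187, whereas cluster 21 mixed subsets, with 36 of 67 and 15 of 52 CD8 T-like, so subset and cycling cannot be told apart. Between these 2 clusters Slfn2 stood at 0.414 and 0.598 times, and Slfn8 at 0.634 (0.396 to 0.996) and 0.273 times (0.159 to 0.453). Slfn5 stood at 0.131 (0.00302 to 0.921) and 0.245 times (0.0811 to 0.629), with only 1.26 CPM in control cluster 21. Slfn9 went the other way between clusters 10 and 21, at 2.81 (1.08 to 8.14) and 4.30 times (1.22 to 23.2). In cluster 13 against cluster 2 Slfn9 stood at 2.03 (1.49 to 2.78) and 1.11 times (0.872 to 1.41). The list of 12 lymphocyte quiescence genes, such as Tcf7 and Klf2, had 0 of 12 members 2-fold higher or lower in T-like cells, where 0.81% and 0.116% of genes were, with a median log2 ratio of -0.21. In NK-like cells 5 of 12 were at least 2-fold lower, against 3.47% of genes, with a median of -0.80 and Tcf7 lowest at -1.28. A list of 16 cell cycle genes had 5 of 13 tested at least 2-fold higher in NK-like cells, against 2.25% of genes, with a median of 0.79. In T-like cells 0 of 16 were 2-fold higher or lower, with a median of -0.01.

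A list of 32 interferon-stimulated genes, Usp18 among them, was also higher in the phagocytes. In monocyte-like cells 30 of 32 were at least 2-fold higher, against 1.9% of all tested genes, with a median log2 ratio of 2.03, from 0.42 for Irf9 to 4.30 for Rsad2, an antiviral enzyme. Isg15 measured 76.7 and 1195 CPM. In macrophage-like cells 20 of 32 passed, against 0.611%, with a median of 1.14. T-like cells had 8 of 31, against 0.81%, and B-like cells 2 of 19, against 0.379%. NK-like cells had 1 of 16 higher, against 2.25%, and 1 of 16 lower, against 3.47%, with 7 of 16 above 0 and a median of -0.25. The list had 16 of 28 higher in cDC1-like cells (1.07% of genes) and 17 of 32 in cDC2-like cells (1.23%). It had 24 of 31 in migratory dendritic-like cells (4.37%) and 11 of 15 in neutrophil-like cells (7.02%). Plasmacytoid-like cells had 3 of 17 higher (1.03%) and 1 lower (2.41%), with a median of 0.28. Melanoma-like cells had 0 of 30 higher (0.122%).

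Thinned monocyte-like cells were then grouped by their UMIs of this list, which holds no Schlafen gene. With 0 to 2 list UMIs, Slfn4 measured 6.12 CPM in 490 control cells and 72.8 CPM in 261 others. With 20 or more, it measured 375 CPM in 8 control cells and 1593 CPM in 189 cells. The ratio within these bins was 11.9 (3.50 to 62.7) and 4.25 (1.44 to 20.7). Within them the median of list UMIs still differed, at 1 and 2 in the lowest bin and 23.5 and 33 in the highest. The bins therefore do not fully match the libraries for the list level, here or in the ratios over bins below.

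Summed over bins, the library difference of Slfn4 was smaller with its interval still above 1, and the Slfn5 interval included 1. For Slfn4 in thinned monocyte-like cells the ratio was 18.9 in all cells (12.1 to 31.2) and 5.24 within bins (3.33 to 8.27, Mantel-Haenszel). For Slfn5 it was 2.31 in all cells (1.92 to 2.78) and 1.14 within bins (0.941 to 1.39). Slfn1 had a ratio of 1.66 within bins (1.35 to 2.03), Slfn2 of 1.28 (1.12 to 1.46) and Slfn8 of 1.77 (1.23 to 2.55). In macrophage-like cells the within-bin ratio was 5.07 for Slfn4 (2.71 to 9.48), 1.93 for Slfn1 (1.29 to 2.90), 0.984 for Slfn5 (0.739 to 1.31) and 1.52 for Slfn2 (1.26 to 1.84). Slfn8 lay below 1 there, at 0.713 (0.471 to 1.08), and Slfn9 above it, at 1.36 (0.647 to 2.87), each with an interval that included 1.

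**Figure D4:**
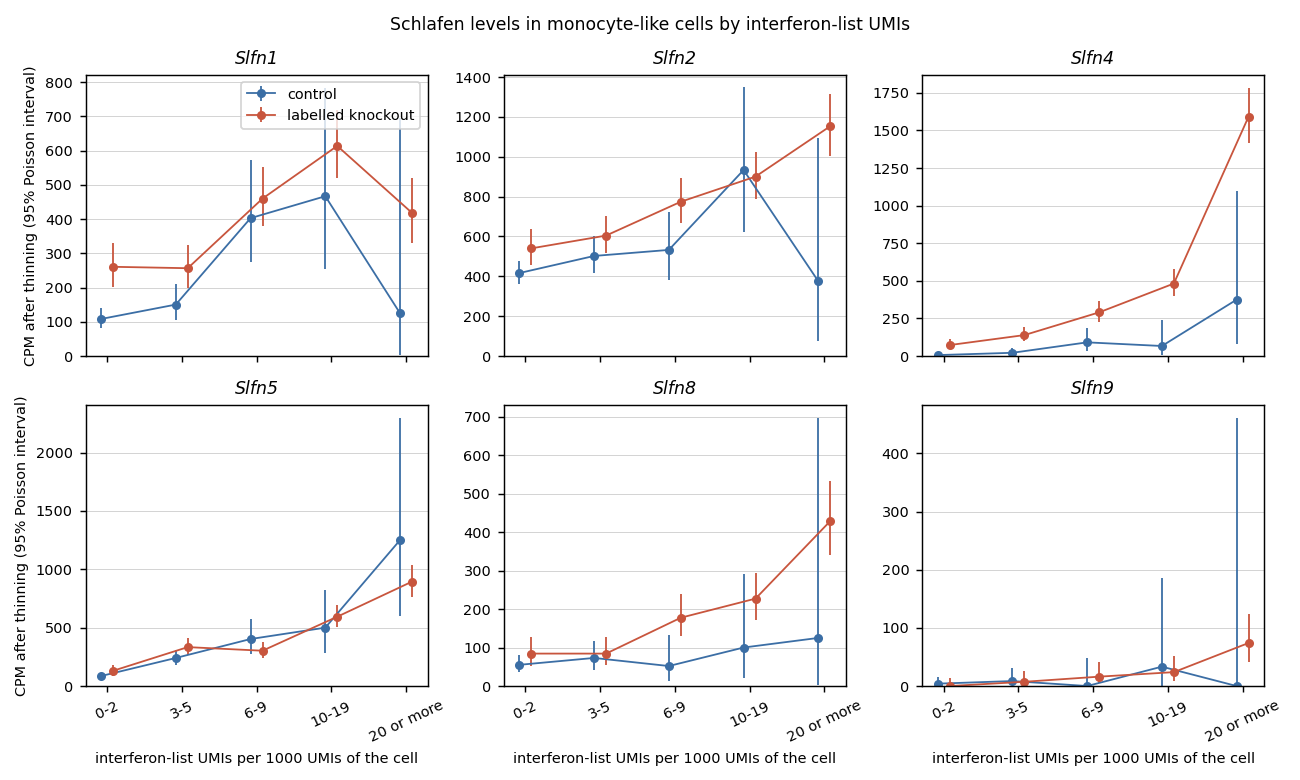
Level of each gene (y axis, CPM after thinning, with 95% Poisson interval) in monocyte-like cells grouped by interferon-list UMIs per 1000 UMIs (x axis), control library in blue and library labelled knockout in red. The Slfn4 values of the library labelled knockout lie above the control values in every bin. Its Slfn5 values lie above the control values in some bins and below them in others. The Slfn5 ratio was 1.52 in the lowest bin and 0.715 in the highest, and its interval included 1 in every bin. The last bin holds 8 control cells.

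Within the library labelled knockout, the 294 monocyte-like cells with a Slfn4 UMI held a mean of 22.7 interferon-list UMIs, and the 928 cells without one held 7.95. Slfn5 measured 687 CPM in the first (596 to 789) and 341 CPM in the second (304 to 380). Slfn8 measured 299 and 150 CPM, and Slfn1 459 and 377 CPM.

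Ratios were also taken within cells of each sex. In monocyte-like cells with Xist, 193 control cells and 980 others, Slfn4 had a ratio of 15.5 (10.9 to 23.1). In those with Y-linked UMIs, 400 and 88 cells, it was 8.79 (6.42 to 12.1). Slfn1, Slfn2, Slfn5 and Slfn8 were higher in the library labelled knockout in both sexes of monocyte-like cells, at 1.59 to 2.68.

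In macrophage-like cells this did not hold for all members. With Y-linked UMIs, in 420 and 253 cells, Slfn1 had a ratio of 0.982 (0.764 to 1.26), Slfn5 of 0.987 (0.835 to 1.17) and Slfn8 of 1.00 (0.788 to 1.27). With Xist, in 227 and 717 cells, the same genes stood at 3.23 (2.54 to 4.16), 1.87 (1.58 to 2.23) and 1.46 (1.18 to 1.83). Slfn4 was higher in both, at 4.94 (3.31 to 7.58) and 11.7 (7.76 to 18.5).

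Cluster makeup moved with this split. Cluster 6 held 29.0% of Xist macrophage-like cells of the library labelled knockout and 5.93% of those with Y-linked UMIs, while cycling cluster 13 held 12.4% and 31.2%. Within 12 sets of 6 clusters by sex, Slfn4 was higher in 12, with intervals above 1 in 11, and Slfn5 was higher in 12, with intervals above 1 in 9. Slfn1 was higher in 11 of 12, the exception being Y-linked cells of cluster 13 (ratio 0.417, 0.196 to 0.825). Slfn2 was higher in 11, with intervals above 1 in 10, and Slfn8 in 10, with intervals above 1 in 6. Slfn9 had a ratio above 1 in 6 of 12, with intervals above 1 in 3 and below 1 in 1. Sets where 1 library held 0 Slfn9 UMIs have no ratio. These were cells with Xist in cluster 4 (0 and 17 UMIs) and Y-linked cells of cluster 7 (0 and 5). The Y-linked cells of cluster 1 (9 and 0 UMIs) and cluster 4 (1 and 0) were the others. Sex, makeup and genotype cannot be told apart for the class values, since each library is 1 pool.

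**Figure D5:**
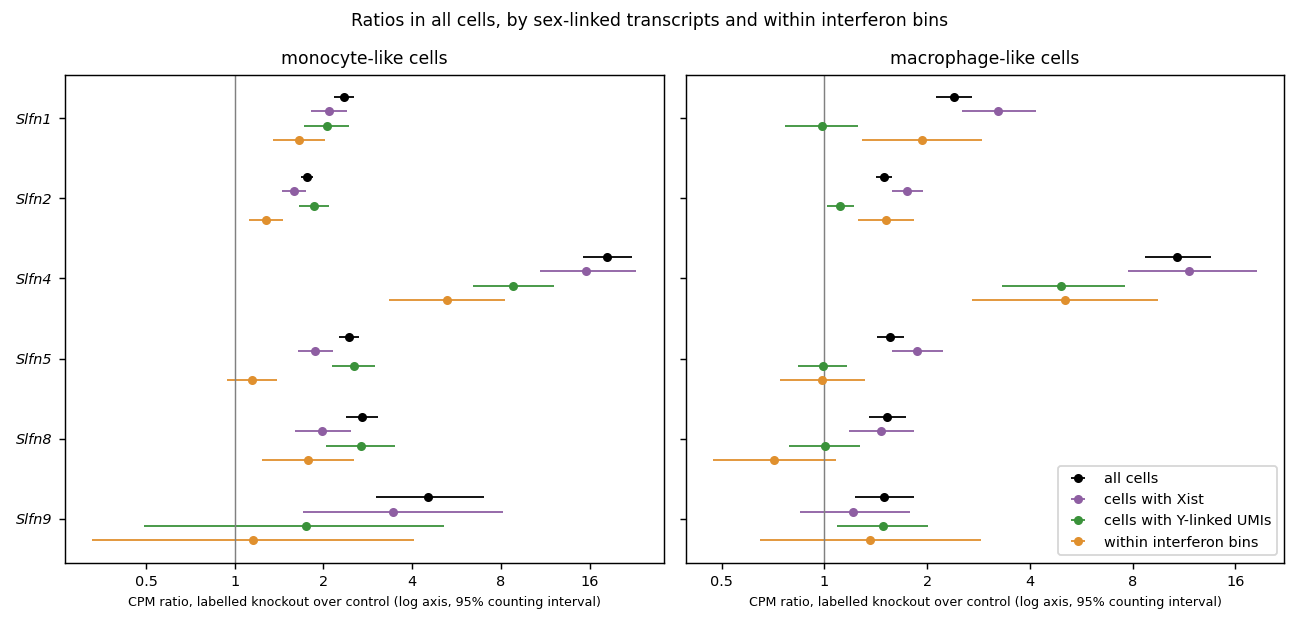
Ratio of CPM, library labelled knockout over control (x axis, log scale, with 95% counting interval), for each gene (y axis) in monocyte-like and macrophage-like cells: all cells in black, cells with Xist in purple, cells with Y-linked UMIs in green and the ratio within interferon bins in orange. The Slfn4 intervals lie above 1 in all 4 versions, and Slfn5 within bins lies at 1.14 and 0.984.

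Profiles over 12 classes in both libraries, 24 points that share their libraries, were compared by Pearson r of log2(CPM + 5) among 9465 genes. The genes most like Slfn4 were Lipg (0.86), Oasl1 (0.86), Rsad2 (0.85), Oas1g (0.85) and Cmpk2 (0.85). Slfn2 was closest to Trim30a (0.95), Apbb1ip, Laptm5, Cd53 and Coro1a, and Slfn8 to Ifi203 (0.94), Mndal, Gmfg, Ptk2b and Ly6e. Slfn1 was closest to 1600014C10Rik (0.87), Tnf, Ifi27l2a, Socs3 and Ms4a6b. Slfn5 was closest to Evi2a (0.90), Dusp1, Dhx58, Mcl1 and Stat2, and Slfn9 to Bag1 (0.77), Tomm5, Ywhab and Vta1. Within the family, Slfn2 and Slfn8 had the highest r, 0.86, and Slfn9 had values between -0.14 and 0.26 with the others.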

How the data were processed

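The authors deposited unnormalized UMI counts, made with Cell Ranger 3.0.1 on mm10, per the submitters' processing notes. Other deposited tables hold barcodes and gene names. Barcodes needed 200 genes or more and no more than 10% mitochondrial UMIs, and the highest Scrublet scores were removed at 0.8% per 1000 barcodes (481 and 294 barcodes). A cell took a class from 3 or more detected markers, with a second score of at most 0.75 of the best; 730 and 570 cells stayed unassigned. Clusters came from scanpy 1.11.5 and leidenalg 0.10.2 (2000 variable genes, 30 components, 15 neighbours, resolution 1), without Schlafen, interferon-list, Lyz2 and technical genes. CPM carries exact Poisson intervals and CPM ratios carry exact conditional intervals. The log2 ratio uses a pseudocount of 5 CPM and at least 20 UMIs over both libraries. With 1 library per group there is no p-value. The ratio code was tested on simulated data. Median depth of kept cells was 2621.5 and 4604.5 UMIs. Members, lists and alternatives were chosen with earlier results of these data known. Genes were named if they were members, other Schlafen features, of the interferon, quiescence or cell cycle lists, or among the 5 most like a member (1 of these is not reported here); cluster-leading genes were named after their values were seen.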

Additional observations from a re-analysis of the deposited data

Results flagged for a closer look

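Slfn5 in other T-like cells, which fitted no single subset, had a ratio of 0.514, below 1. Its ratio lay above 1 with its interval in 9 other classes. The difference between classes was not tested. The value rests on 45 and 20 UMIs, and the log2 ratio of -0.79 was -0.90 after thinning and -2.15 in cells with Xist.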

How the results depend on the processing

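No paired analysis was possible because each group is 1 library. Of 845 values recomputed under alternatives, 686 stayed within the counting interval or count range, 147 moved and 12 reversed; 82 more had too few UMIs. The count of 2 members at least 2-fold higher in mononuclear phagocytes was 5 with a mitochondrial limit of 5%, 5 with the mean of per-cell CPM, 4 after thinning, 1 in cells with Y-linked UMIs and 1 without cluster 6, a check added after seeing the data. The T-like count of 1 was 0 after thinning. In cells with Y-linked UMIs the T-like count was 0, and the B-like count of 0 was 1. The Slfn4 log2 ratio in mononuclear phagocytes, 3.46, was 3.76 with a pseudocount of 1, 3.76 with the mean of per-cell CPM, 3.81 after thinning, 1.83 in cells with Y-linked UMIs and 3.02 without cluster 6. All reversals came from the split by sex. In cells with Y-linked UMIs the log2 ratio of Slfn1 was -0.065 in mononuclear phagocytes, -0.023 in macrophage-like and -0.19 in neutrophil-like cells. There Slfn5 was -0.017 in macrophage-like, -0.69 in cDC2-like and -0.44 in T-like cells, and Slfn2 was -0.57 in regulatory T-like cells. In cells with Xist, Slfn1 was -1.32 in neutrophil-like cells, Slfn5 was -0.37 in pDC-like and -0.28 in T-like cells, and Slfn2 was -0.084 in T-like and -0.49 in melanoma-like cells. The cause was not tested. The 24 neutrophil-like cells of the library labelled knockout limit that class.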
